A study of Mus musculus with 12 samples.

Results

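The outermost probesets of genes on the Affymetrix Mouse Exon 1.0 ST array were compared with the inner probesets of the same genes in the brain of newborn mice. A probeset is a small set of short probes, at most 4, that read the same exon or one stretch of it. Genes were taken if they had 10 or more probesets of the main type that are marked as matching a single place (cross-hybridization type 1), and the stretch of chromosome 1 from 152.1 to 192.1 Mb around Uhmk1 was left out. The probesets of each gene were ordered by their start along the strand, so that the most 5′ probeset is called first and the most 3′ probeset last. Of the 229581 probesets of the table, 186719 were of this kind, for 16686 gene symbols, and 7920 symbols had at least 10 of them. Of these, 104 symbols had probesets on both strands and could not be ordered, and 147 lay in the excluded stretch. The remaining 7669 genes held 138103 probesets, of which 15338 were first or last probesets, with a median of 15 probesets per gene and at most 115.

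The arrays come from a study of KIS, the protein kinase encoded by Uhmk1, which phosphorylates the splicing factor SF1. Total RNA was taken from the whole brains of 12 newborn female mice, 6 wildtype (KIS +/+) and 6 KIS-ko (KIS -/-), each on its own array, and each of the 6 litters gave 1 animal per genotype. The KIS-ko mice had been backcrossed for 10 generations to C57BL6/N. The sources used here name no tissue-restricted driver of the deletion and no treatment for either group. The mean log2(signal + 16) of the 8 probesets of Uhmk1, which is no member because it has too few probesets, was 10.71 ± 0.09 in the 6 wildtype brains and 7.96 ± 0.26 in the 6 KIS-ko brains (SD).

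A messenger RNA begins at a transcription start site and ends where it is cut and polyadenylated. Many genes of the brain have more than one start or more than one end, so that the outermost annotated exon can be absent from the main form of the transcript. SF1 takes part in the recognition of the branch point near the 3′ end of introns, an early step of splicing.

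The value followed throughout is the log2(signal + 16) of an end probeset minus the mean of the same quantity over the inner probesets of the same gene on the same array, where the signal is the intensity that the PLIER algorithm gives. A factor common to all probesets of a gene on an array cancels in it, apart from the effect of the constant 16 on dim probesets. The value still went together with the level of the gene and with the median signal of the array, as given below. A value of -1 means that the end read 1 log2 unit below the interior. The probeset in the middle of each gene, set against the other inner probesets, was used as the reference, since probesets of the same gene differ in brightness wherever they lie. Brightness compared between probesets is not a ratio of molecules, and only its difference between positions, over many genes, or between arrays is reported as a comparison. Of the 5222 intron control probesets, the median signal was 114 and the 95th percentile was 710, and these set what is called dim below.

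The bases just before the start that RefSeq lists are shown for 5 of 8 genes. These 8 had the first probesets farthest below or above their interiors among the 3369 genes with an interior above the 95th percentile of the intron controls. The bases are shown since the number of listed starts and the letters before them are among the features set against the first probeset below. The windows hold the 100 bases before the start on the strand of the gene (RefSeq, GRCm38.p6), with each CG in capitals. They are Vim at chr2:13574211-13574310 (+), Igf2 start 1 at chr7:142666817-142666916 (-), Igf2 start 4 at chr7:142657497-142657596 (-), Ktelc1 (listed as Poglut1) at chr16:38550257-38550356 (-), Dmwd at chr7:19076100-19076199 (+) and Bre (listed as Babam2) at chr5:31697950-31698049 (+).
Vim: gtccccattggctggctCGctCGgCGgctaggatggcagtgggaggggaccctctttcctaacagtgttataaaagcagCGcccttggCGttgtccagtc
Igf2 start 1: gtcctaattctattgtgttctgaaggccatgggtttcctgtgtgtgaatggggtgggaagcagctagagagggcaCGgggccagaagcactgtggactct
Igf2 start 4: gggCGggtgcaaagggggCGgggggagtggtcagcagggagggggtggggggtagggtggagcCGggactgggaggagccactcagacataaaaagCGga
Ktelc1: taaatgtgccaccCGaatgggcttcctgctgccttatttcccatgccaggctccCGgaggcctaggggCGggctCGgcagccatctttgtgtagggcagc
Dmwd: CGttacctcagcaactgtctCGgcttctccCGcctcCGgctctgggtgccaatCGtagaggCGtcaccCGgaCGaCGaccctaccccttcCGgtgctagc
Bre: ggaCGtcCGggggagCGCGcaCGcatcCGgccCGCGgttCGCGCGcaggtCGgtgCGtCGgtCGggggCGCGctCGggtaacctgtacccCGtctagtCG

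The window of Vim holds 5 CG and the letters TATAAA, and that of Bre holds 20 CG. Over all 32851 windows of this length the median was 3 CG, 79.3% held at least 1 CG, and 5.56% held TATAAA when both strands were searched. The positions of the array table belong to a genome build that is not given in the sources used here, so they were not laid over these windows. A match of letters describes the window only.

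In the median over genes, ends were dimmer than interiors, and the 3′ end more than the 5′ end, although first probesets stood higher than dim interiors (a median of 0.09 in the 4300 genes whose interior did not pass the 95th percentile of the intron controls). The median over genes of first minus inner was -0.17 ± 0.052 (SD over the 12 arrays) and ranged from -0.24 to -0.05 between arrays. The median of last minus inner was -0.51 ± 0.017 and ranged from -0.53 to -0.48. The middle probeset stood at 0.16 ± 0.0098, and all 12 arrays lay between 0.14 and 0.17. The arrays of the first, last and middle probesets thus formed 3 separate bands without overlap.

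Averaged within litters, the first probeset was lower than the middle one by 0.33 log2 units (-0.33 ± 0.044, SD, n = 6 litters) and the last lower than the middle by 0.66 (-0.66 ± 0.016). The last was lower than the first by 0.33 (-0.33 ± 0.045). These are differences between medians over genes. Each of these 3 differences had the same direction in 6 of 6 litters, and the two-sided exact sign-flip permutation test gave p = 0.03125 for each, the smallest value that 6 litters allow. The medians of first minus inner and of last minus inner against 0 gave the same p. One alternative turned the direction at the 3′ end and the order of the ends. It kept the 1303 genes whose interior and both ends were all brighter than the 95th percentile of the intron controls. There the median of last minus inner was 0.012 and that of first minus inner -0.07. The median of last minus first, taken within each gene, was 0.064, against -0.39 over all genes, a different statistic from the difference between medians above. That choice removes genes by the dimness of the ends themselves.

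The lower tail of the values was longer at both ends than in the middle of genes, as the plot of the 3 distributions shows. Of the first probesets, 2016 (26.3% of 7669) lay more than 1 log2 unit below the interior, against 2730 of the last (35.6%) and 1011 of the middle ones (13.2%). More than 1 unit above lay 1325 of the first (17.3%), 693 of the last (9.04%) and 1226 of the middle ones (16%). More than 3 units below lay 274 of the first, 452 of the last and 71 of the middle probesets. The last probeset thus had both the most low and the fewest high values of the 3 positions.

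Over the 12 arrays most of these single values differed from 0, at every position. By limma with Benjamini-Hochberg adjustment at a threshold of 0.05, 51.5% of the first probesets were lower and 40.8% higher than the interior, 62.3% of the last were lower and 30.3% higher, and 39.2% of the middle ones were lower and 52.2% higher. A single end that differs from its interior is therefore the rule for any position, and the direction carries the difference between positions. The median residual SD of a gene between arrays was 0.177 for first minus inner, 0.166 for last minus inner and 0.136 for middle minus inner. Both ends lay more than 1 unit low in 754 genes (9.83%). Across the 7669 genes, which are not independent replicates, Pearson's r between the values of the first and the last probeset was 0.034.

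**Figure D1:**
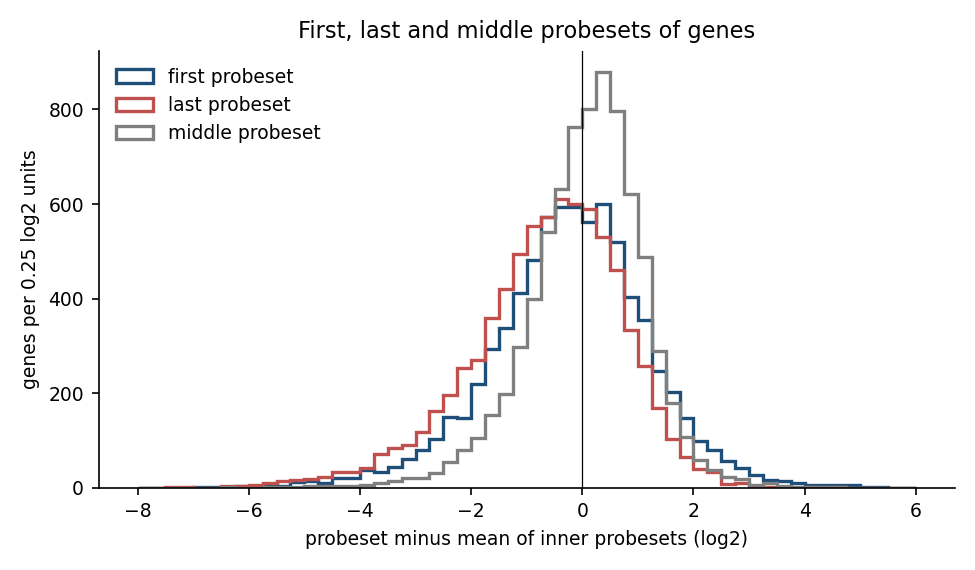
Number of genes (vertical axis, per bin of 0.25 log2 units) by the log2(signal + 16) of the first, last or middle probeset minus the mean of the inner probesets, averaged over 12 arrays (7669 genes). The first and last probesets have longer lower tails than the middle one, with 26.3%, 35.6% and 13.2% of genes below -1.

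In genes with a bright interior, the dim ends could be set against the level of intron controls. The interior of 3369 genes lay above the 95th percentile of the controls. Among these, 142 first probesets (4.21%), 238 last probesets (7.06%) and 22 middle probesets (0.653%) read below the median control. In the same genes the median of first minus inner was -0.49, that of last minus inner -0.64 and that of middle minus inner 0.21. In the other 4300 genes the medians were 0.09, -0.42 and 0.08, and 19.6% of the first probesets lay below -1 and 23.7% above 1.

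Vim and Igf2 had the lowest first probesets among these 3369 genes, together with Map4k4 and Sesn1. The 4 were chosen by these values, which are given as a description. Vim encodes vimentin, the intermediate filament protein of radial glia and of immature astrocytes. Its first probeset (chr2:13495699-13495778, + strand) had a signal of 28.3, 45.6 and 59.1 (lowest, median and highest) in wildtype and of 29.5, 44.0 and 47.3 in KIS-ko brains. The interior stood at 5767, 6636 and 6921 in wildtype and at 5930, 6561 and 6869 in KIS-ko. This gave -6.80 ± 0.25 (SD, 12 arrays) for first minus inner, and the next probeset already read 2834 ± 148 in wildtype. The outermost probeset of Vim carries an Ensembl accession, whereas the 11 others carry RefSeq accessions.

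Igf2, an imprinted growth factor gene with several promoters, was lower over its first 3 probesets than over the rest. Its first probeset (chr7:149847151-149847239, - strand) read 29.9 ± 6.6 in wildtype and 32.9 ± 18.3 in KIS-ko brains (SD, n = 6 each). The probesets at rank 2 and 3 read 1085 ± 120 and 550 ± 67 in wildtype. From rank 4 on, all 11 probesets lay between 3654 and 10080 in wildtype, so that the signal rose both from rank 1 to rank 2 and from rank 3 to rank 4. First minus inner was -6.50 ± 0.34 (12 arrays), and -2.17 after a filter on the relative standard deviation of probesets (at most 0.4). RefSeq lists 4 starts for Igf2, and the windows of the most upstream and the most downstream one are printed above.

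Map4k4, a serine/threonine kinase of the MAP kinase cascades, had a first probeset of 2 probes that read near 0 on most arrays but up to 76.4 in wildtype and 55.0 in KIS-ko brains, against an interior of 2245 to 2550. After the filter on relative standard deviation another probeset became the first of Map4k4, and the value was 0.076 in place of -6.73. Sesn1, a sestrin induced by stress, had a first probeset that was listed near 0 on all 12 arrays, with an interior of 1278 to 1598. All 4 of these first probesets read below the median of the intron controls, 114, on every array, so that the size of each value and the order of the 4 depend on the constant 16. For probesets near 0 only the sign is informative. With a constant of 1 the value of Sesn1 moved from -6.50 to -10.5 and that of Map4k4 from -6.73 to -9.81, below those of Vim (-7.23) and Igf2 (-7.09).

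Among the same 3369 genes the highest first probesets belonged to Dmwd, Ktelc1, Bre and Guf1. Dmwd encodes a WD repeat protein, and its first probeset (chr7:19661569-19661594, + strand, 2 probes) read 13834, 14549 and 15047 in wildtype and 14047, 14797 and 16703 in KIS-ko brains. Its interior lay between 1051 and 1252 on the 12 arrays, and first minus inner was 3.67 ± 0.14. Ktelc1 (Poglut1), which adds glucose to Notch receptors, had a value of 3.18 ± 0.20, Bre (Babam2), a subunit of a BRCA1 complex, of 2.90 ± 0.18, and Guf1, a mitochondrial GTPase of translation, of 2.85 ± 0.27. With the mean of the 2 outermost probesets in place of the first alone, the value was 1.98 for Dmwd, 1.97 for Ktelc1, 1.72 for Bre and 0.20 for Guf1, so that the height of these starts lay mostly in the outermost probeset.

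At the 3′ end Atp5b and Armcx2 were among the 4 of the 3369 genes with the lowest last probesets. Atp5b, the beta subunit of the mitochondrial ATP synthase, had a last probeset of 4 probes (chr10:127527339-127527403, + strand) that read 47.8, 56.9 and 79.1 in wildtype and 34.1, 50.2 and 59.8 in KIS-ko brains, under an interior of 9433 to 10659, and a value of -7.18 ± 0.25. The probeset before it read 17300 ± 454 in wildtype, so that the drop lay in the outermost probeset. Armcx2, an X-linked armadillo protein, had a value of -6.42 ± 0.31 from a last probeset of 3 probes, and of -0.88 after the filter on relative standard deviation. Both last probesets read below the median of the intron controls on every array, so that the size and order of these values depend on the constant, and with a constant of 1 they were -7.53 for Atp5b and -8.17 for Armcx2.

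The highest last probesets of the 3369 genes were those of Plcb4, Jph4, Capza2 and Gnas. Plcb4, a phospholipase C, stood at 3.00 ± 0.11, Jph4, the junctophilin of neurons, at 2.81 ± 0.07, and Capza2, a subunit of the actin capping protein, at 2.64 ± 0.16. Gnas encodes the stimulatory G protein alpha subunit and, from upstream first exons, other imprinted products that share its downstream exons. Its last probeset (chr2:174171900-174171972, + strand) read 5618, 7011 and 8256 in wildtype and 5162, 6802 and 7068 in KIS-ko brains, and last minus inner was 2.40 ± 0.19. The interior of Gnas was itself uneven: ranks 1 to 23 of its 34 probesets read between 38.3 and 2190 in wildtype, and ranks 26 to 33 between 8727 and 17780. The last probeset of Gnas was thus dimmer than its near neighbours although it stood far above the mean of the interior. Wildtype and KIS-ko values overlapped for all 14 of these ends. The 14 were not chosen by genotype, and the share of all genes that overlapped was not counted.

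**Figure D2:**
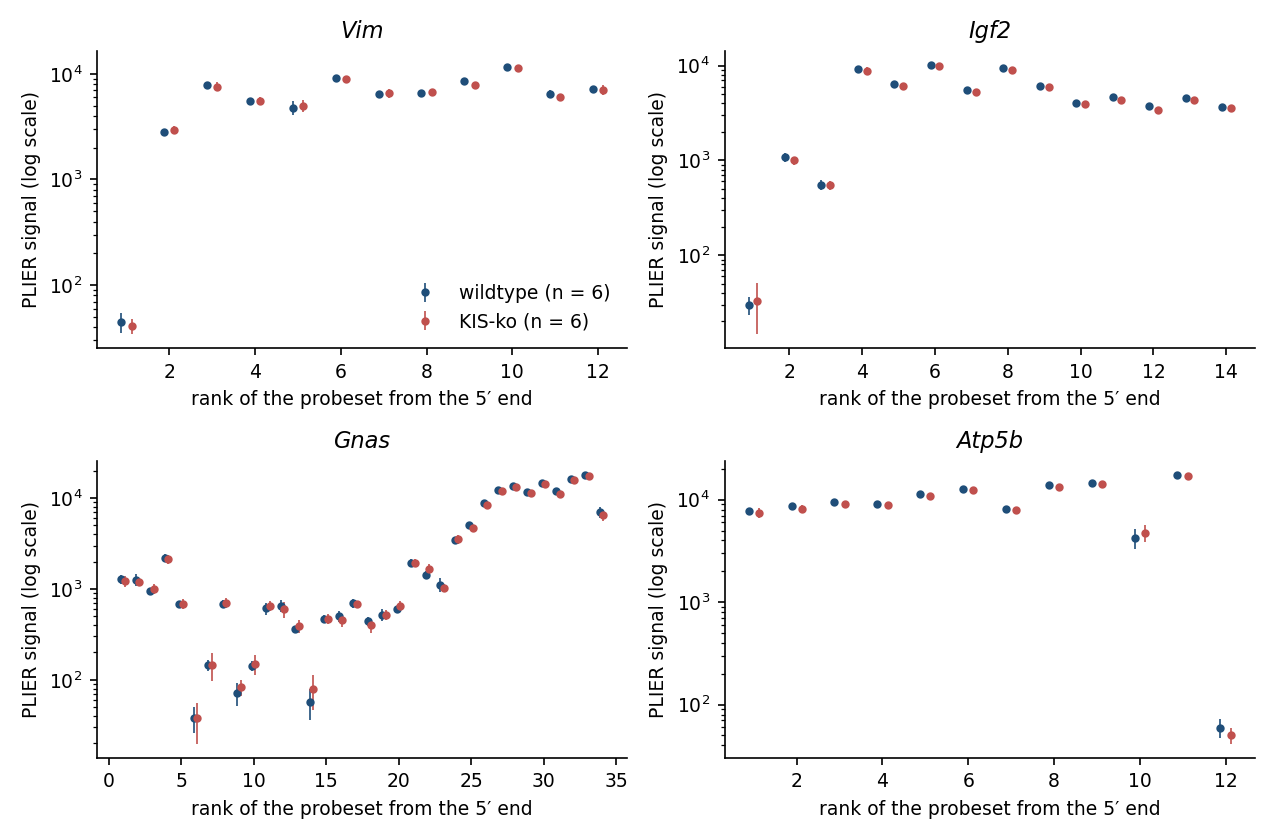
PLIER signal (vertical axis, log scale) of each probeset of Vim, Igf2, Gnas and Atp5b by its rank from the 5′ end, with points for the mean and bars for the SD of 6 wildtype (blue) and 6 KIS-ko (red) brains. Vim and Igf2 start low, Gnas rises from the upstream to the downstream exons, and the last probeset of Atp5b lies at 59.6 in wildtype, below inner probesets of 4252 to 17300.

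The annotation of the ends went together with their value. Of the first probesets, 92.6% carried a RefSeq accession, and their median of first minus inner was -0.14 (7100 genes). The 224 with an Ensembl accession stood at -0.84, and 45.5% of them lay below -1, against 25% with RefSeq. Of the last probesets, 7253 with RefSeq stood at -0.49 and 163 with Ensembl at -1.07. When an end did not share its accession with most inner probesets of its gene, the median was -0.85 for 685 first and -0.87 for 420 last probesets, and -1.10 for 206 middle ones, so that the same held away from the ends. In the 6851 genes with a RefSeq accession at both ends the medians were still -0.14 and -0.50.

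Genes with more than one start in RefSeq had lower first probesets. A total of 7604 of the 7669 symbols were matched to RefSeq, and 6046 of these had a listed start. The median of first minus inner was -0.12 with 1 start (4604 genes), -0.30 with 2 (1068 genes) and -0.58 with 3 or more (374 genes). The middle probeset moved the other way (0.14, 0.20 and 0.21), and the last probeset was higher, not lower, in genes with more starts (-0.52, -0.47 and -0.38). Genes with more starts were also brighter, with a median inner level of 9.19, 9.49 and 9.76, and the level of the gene goes together with the value as well. The part of each was not tested.

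With the genes ordered by the level of their interior and split into 5 groups of near equal size, the median of first minus inner went from 0.32 in the dimmest group through 0.08, -0.13 and -0.35 to -0.67 in the brightest. The last probeset went from -0.31 to -0.64 and the middle probeset from -0.01 to 0.25. Since the inner level enters both sides of this comparison, and dim probesets cannot fall much further, it is a description. The first probeset was higher than the last in the 4 dimmer groups, and in the brightest they differed by less than the spread of the arrays (-0.67 ± 0.062 and -0.64 ± 0.031).

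The length of the probeset region went together with the value, most evenly at the 3′ end. Last probesets were long, with a median of 198 bases against 70 for the first and 80 for the middle ones. In 5 groups by their own length, from a median of 45 bases to one of 853, the median of last minus inner rose from -1.06 through -0.63, -0.54 and -0.41 to -0.11. The first probesets showed no such order (-0.29, -0.12, -0.07, -0.17 and -0.29). The middle probesets were lowest in the shortest group (-0.045, 24.3% below -1) and stood at 0.15, 0.15, 0.25 and 0.20 in the others, so that the shortest probesets were low away from the ends too. Last probesets of fewer than 4 probes were lower still, with medians of -1.44 (1 probe, 83 genes), -1.90 (2 probes, 96 genes) and -1.34 (3 probes, 79 genes), but the median over the 7411 with 4 probes was -0.49, so that few of the genes were concerned. Middle probesets of 1 probe were also low, at -0.54 (153 genes) against 0.16 with 4 probes. Last probesets in the same exon as their inner neighbour stood at -0.56 (5060 genes) and the others at -0.42, and first probesets at -0.33 (2796 genes) and -0.10.

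In the promoter windows of the 4604 genes with a single listed start, 151 held TATAAA (3.28%), and their median of first minus inner was 0.23, against -0.12 for the other 4453. The genes with TATAAA had dimmer interiors (median 7.66 against 9.22), a level at which first probesets were higher in general, and the part of each was not tested. By the number of CG in the window, the medians were 0.05 for 0 or 1, -0.12 for 2 to 9, and -0.15 for 10 or more, over inner levels of 7.08, 9.04 and 9.80.

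**Figure D3:**
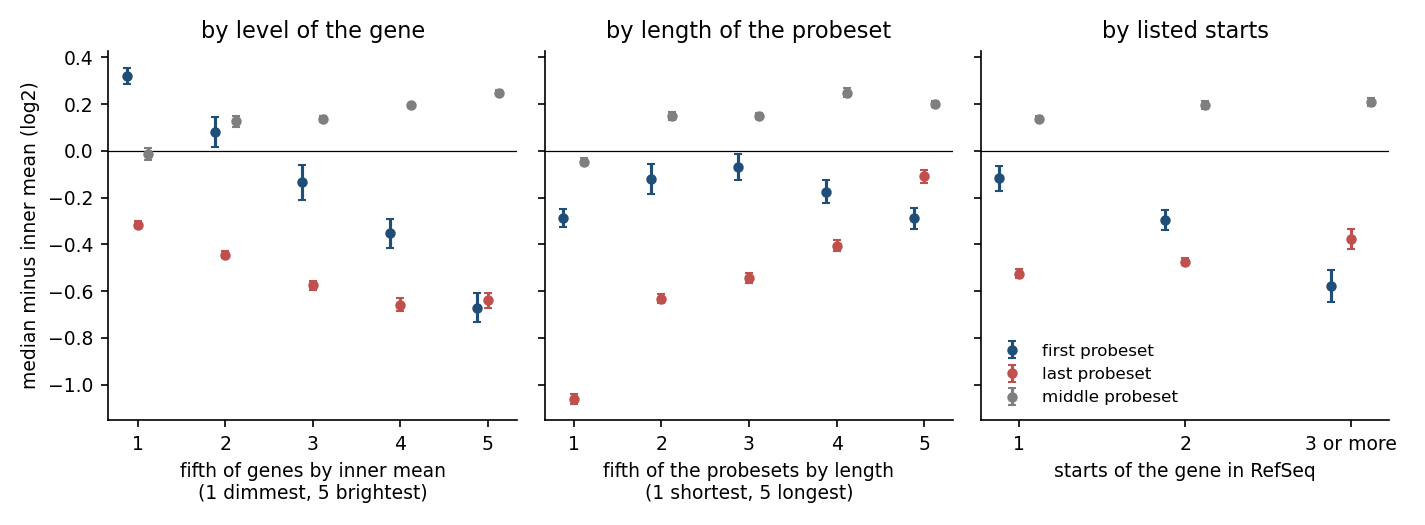
Median over genes of the first (blue), last (red) and middle (grey) probeset minus the inner mean (vertical axis, log2), for genes grouped by the level of the interior, by the length of the probeset and by the number of starts in RefSeq; bars are the SD over 12 arrays. The first probeset falls with level and with the number of starts, and the last probeset rises with length from -1.06 to -0.11.

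The decline toward the ends reached further at the 3′ end than at the 5′ end. Counted from the 5′ end, the medians at ranks 1 to 5 were -0.17, 0.02, 0.13, 0.13 and 0.15, so that the third probeset was already near the level of the middle one. Counted from the 3′ end they were -0.51, -0.17, -0.03, 0.04 and 0.08. The arrays differed most at the very first probeset, where the SD over 12 arrays was 0.052, against 0.025 at rank 2, 0.012 at rank 3 and 0.017 at the last probeset.

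**Figure D4:**
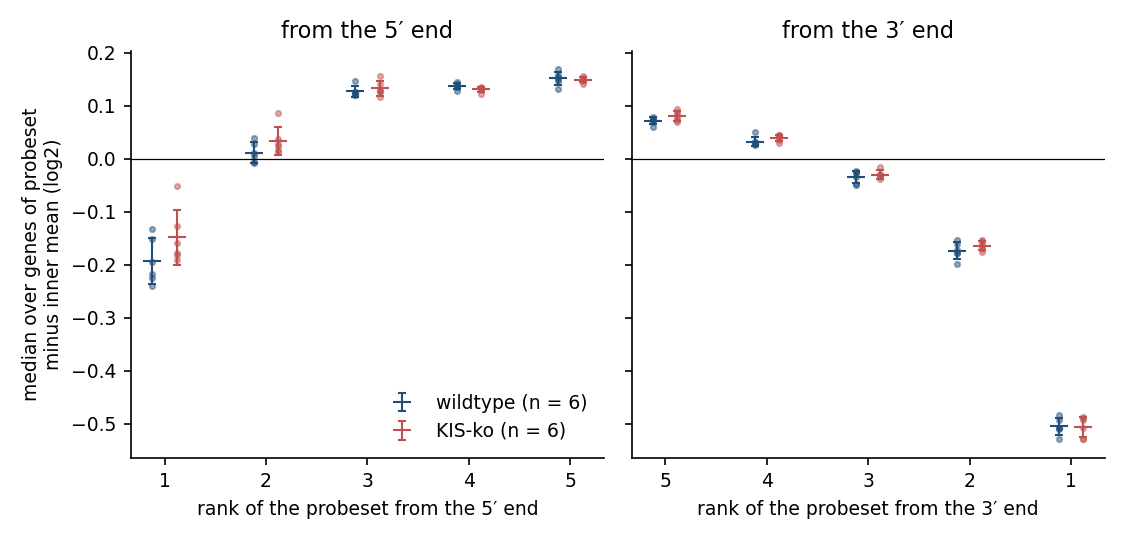
Median over 7669 genes of the probeset minus the inner mean (vertical axis, log2) by rank from the 5′ end (left) and from the 3′ end (right), with small points for the single arrays and bars for the mean ± SD of 6 wildtype (blue) and 6 KIS-ko (red) brains. The genotypes overlap at every rank, and the arrays spread most at 5′ rank 1.

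Whether the loss of KIS changed starts or ends was asked within litters. Over all genes, first probesets stood slightly higher relative to their interiors in KIS-ko brains, by less than litters differed, and last probesets did not shift. No single gene passed the adjusted threshold at either end. The median of first minus inner was -0.24, -0.21 and -0.13 (lowest, median and highest) in wildtype and -0.19, -0.17 and -0.05 in KIS-ko brains, so that the genotypes overlapped. The difference within litters was 0.045 ± 0.059 (SD, n = 6), higher in KIS-ko in 5 of 6 litters, and the two-sided exact sign-flip permutation test gave p = 0.1562. For the last probeset the values were -0.53, -0.51 and -0.48 in wildtype and -0.53, -0.50 and -0.49 in KIS-ko, and the difference was -0.0012 ± 0.025 (p = 0.9062, the same exact test). Last minus first differed by -0.050 ± 0.080 (p = 0.1875, the same exact test) and was lower in KIS-ko in 5 of 6 litters. The middle probeset differed by -0.0012 ± 0.0094 (p = 0.7812, the same exact test).

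The litters varied in size and direction. First minus inner changed by 0.036, 0.048, 0.026, -0.050, 0.099 and 0.11 in litters 1 to 6. Litter 4 was the exception in direction. Without it the difference was 0.064, with p = 0.0625 by the exact sign-flip permutation test, the smallest that 5 litters allow. Since the only litter of the other direction was left out, its direction in 5 of 5 litters was fixed by that choice. At rank 2 from the 5′ end the difference was 0.022 ± 0.029, at rank 3 0.0059 ± 0.018 and at rank 4 -0.0063 ± 0.0053, lower in KIS-ko in 6 of 6 litters. Across the 5 groups by inner level, the difference at the first probeset lay between 0.030 and 0.064.

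The brightness of the array moved with the same quantity. In litters 1 to 6 in turn, the median signal over the main probesets with a gene symbol was 545, 537, 516, 502, 491 and 546 for wildtype and 517, 489, 507, 538, 478 and 485 for KIS-ko. Litter 4 was thus also the only litter whose brighter array was that of the KIS-ko brain. Across the 12 arrays, which include 6 pairs of littermates, Pearson's r between the log2 array median and the median of first minus inner was -0.78 (permutation p = 0.00154, adjusted p = 0.00231 over 3 relations), and Spearman's rho was -0.82 (permutation p = 0.00196, adjusted 0.00294). Without the 2 arrays farthest from the median brightness, KIS-ko of litter 5 and wildtype of litter 6, r was -0.66. Within genotypes it was -0.81 over the 6 wildtype and -0.66 over the 6 KIS-ko arrays. For last minus first r was 0.86 (permutation p = 0.00016, adjusted p = 0.00048) and rho 0.85 (permutation p = 0.00082, adjusted 0.00246), 0.81 without the same 2 arrays, and for last minus inner 0.56 (permutation p = 0.05939) with rho 0.55 (permutation p = 0.07219) and r of 0.40 without them. RNA quality and the share of array brightness in the genotype difference were not tested. Quantile normalization repeated on all probesets left the difference at 0.048.

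**Figure D5:**
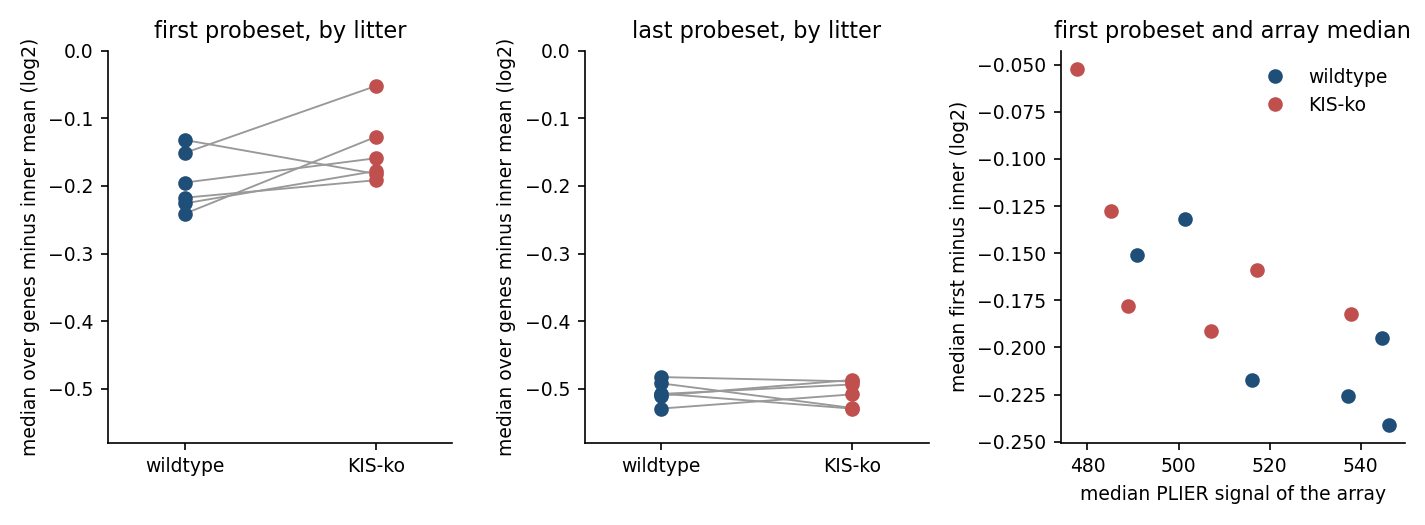
Median over 7669 genes of first minus inner (left) and last minus inner (middle) on each array (vertical axes, log2), with littermates joined by a line, and first minus inner against the median PLIER signal of the array (right). The value of the first probeset falls with the array median, and 5 of 6 lines rise from wildtype to KIS-ko on the left.

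By limma with the litter as a block, 0 of 7669 genes (0%) differed by genotype after Benjamini-Hochberg adjustment in first minus inner, in last minus inner, in last minus first, or in middle minus inner. At an unadjusted p under 0.05 there were 539 genes for the first probeset (7.03%), of which 398 were higher in KIS-ko (5.19%) and 141 lower (1.84%). The median difference over all genes was 0.044, in the direction of the larger count. For the last probeset 433 genes (5.65%) reached this level, 2.63% higher and 3.01% lower, and for the middle probeset 414 (5.4%), 2.53% higher and 2.87% lower. For last minus first there were 485 (6.32%), 1.76% higher and 4.56% lower. Without litter 4 the unadjusted counts for first, last, last minus first and middle were 1163, 741, 948 and 812, still with 0 genes past the adjusted threshold, and without litter 6 the count for the first probeset was 317. In simulated data of the same 7669 genes, a change of 0.5 log2 units at the first probeset was called in 75.5% of 200 changed genes and a change of 1 unit in 90%, and at the last probeset in 74% and 92.5%. For last minus first fewer were called, 46.5% and 82.5%. The simulation changed 200 genes each by 0.5, 1 and 2 units at once, with independent noise. The adjusted threshold is easier to pass when many genes change, so these rates do not hold where few genes change. In the data, Cacng5 with a difference of 0.50 and Saps2 with 0.98 at the first probeset had an adjusted p of 0.694 by limma. In bulk tissue, fewer cells of a type and less RNA per cell cannot be told apart.

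The genes of smallest p at the first probeset were A630038E17Rik, Ctse, Fam125a, Saps2 and Cacng5, which were all higher relative to their interior in 6 of 6 KIS-ko brains than in their littermates, with an adjusted p of 0.694 for each by limma. They were chosen by these p-values, so that a lack of overlap between genotypes is not a further result. The share of all genes without overlap was not counted. Cacng5, an auxiliary subunit of AMPA receptors, was the only one of these 5 whose genotypes did not overlap. Its first probeset (chr11:107772620-107772666, - strand) read 94.2, 122 and 141 in wildtype and 136, 161 and 207 in KIS-ko brains, all under the 95th percentile of intron controls. First minus inner was -2.95, -2.69 and -2.46 in wildtype and -2.38, -2.23 and -1.85 in KIS-ko, a difference of 0.50 with an SE of 0.093. Saps2 (chr15:89041998-89042036, + strand), a regulatory subunit of protein phosphatase 6, had the largest difference of the 5, 0.98 with an SE of 0.18, from signals of 51.9, 131 and 228 in wildtype and 197, 257 and 324 in KIS-ko. Its interior stood at 1440, 1664 and 1740 in wildtype and at 1497, 1661 and 1701 in KIS-ko, where the genotypes overlapped. After the filter on relative standard deviation another probeset became the first of Saps2, and the difference was -0.20. Ctse, the aspartic protease cathepsin E, differed by 0.55, A630038E17Rik by 0.49 and Fam125a, a subunit of the ESCRT-I complex, by 0.43. The interiors of Ctse and A630038E17Rik had mean signals of 79.8 and 77.3, below the median of the intron controls, 114, and the first probeset of A630038E17Rik read 85.1. With the mean of the 2 outermost probesets in place of the first, the differences of the 5 genes were smaller, 0.20 to 0.38.

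At the last probeset the genes of smallest p were Cep110, Rad54l, Krt5, Gk5 and Txk (adjusted p of 0.710 each by limma). Gk5, a glycerol kinase, and Txk, a kinase of the Tec family, did not overlap between genotypes. These genes too were chosen by p, and the share of all genes without overlap was not counted. Last minus inner of Gk5 was 0.64, 0.67 and 0.86 in wildtype and 0.21, 0.37 and 0.47 in KIS-ko brains, a difference of -0.36 with an SE of 0.062, from a last probeset (chr9:96082542-96083011, + strand) with median signals of 299 and 218. Txk (chr5:73104027-73104088, - strand) was at 0.25, 0.47 and 0.87 in wildtype and at -0.51, -0.16 and 0.20 in KIS-ko, a difference of -0.64 with an SE of 0.12, at median signals of 108 and 59.0. Krt5, a keratin of squamous epithelia, differed by -0.61, Cep110, a centriole protein, by 0.44 and Rad54l, a DNA repair helicase, by 0.48. All 5 last probesets read below the 95th percentile of the intron controls on every array. Those of Cep110 (30.8 to 76.8), Rad54l (26.7 to 101) and Krt5 (1.72 to 45.2) read below the control median on every array. The interior of Txk, with a mean signal of 70.5, also lay below this median. The difference of Krt5 was -0.077 after the filter on relative standard deviation. Its size also depends on the constant, with -1.2 for a constant of 1 and -0.281 for a constant of 64. With the mean of the 2 outermost probesets the difference was -0.087 for Gk5, -0.34 for Krt5, -0.37 for Txk, 0.28 for Cep110 and 0.29 for Rad54l.

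For last minus first, Ccnb3, Saps2, Tmem184a, Frk and Maob had the smallest p (adjusted p of 0.456 for the first 4 and 0.581 for Maob by limma), and all 5 were lower in KIS-ko in 6 of 6 litters. Maob, the monoamine oxidase of glia and serotonin neurons, went from a median of -2.41 in wildtype to -2.93 in KIS-ko. Its first probeset read 421 to 641 and 490 to 637 in the genotypes, and its last 58.7 to 87.9 and 42.2 to 65.1. Tmem184a was the only one of the 5 whose genotypes did not overlap, with a difference of -0.74 and an SE of 0.12. The 5 were chosen by p, and the share of all genes without overlap was not counted. The interiors of Ccnb3 and Tmem184a, at mean signals of 27.4 and 83.2, lay below the median of the intron controls. Both ends of Ccnb3 read below this median on every array (first 25.4 to 75.6, last 7.98 to 54.5). So did both ends of Frk (first 4.33 to 37.8, last 13.2 to 59.9). The last probesets of Maob and of Tmem184a (38.9 to 85.9) were below it on every array as well. With the mean of the 2 outermost probesets at each end the difference was -0.12 for Maob, -0.20 for Frk, -0.37 for Tmem184a, -0.63 for Ccnb3 and -0.64 for Saps2, and after the filter on relative standard deviation it was -0.031 for Saps2 and -0.22 for Frk.

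Genes known for several promoters or first exons were taken as a list, of which 22 of 30 met the rule. Their median of first minus inner was -0.48, against -0.17 over all genes, and 7 of 22 (31.8%) lay below -1, against 26.3% of all genes, while their last probesets stood at 0.35, against -0.51, with 4 of 22 (18.2%) below -1 against 35.6%. Their middle probesets had 5 of 22 (22.7%) below -1, against 13.2% of all genes. Ank2, an ankyrin of axons, had the lowest first probeset of the list at -5.64 ± 0.21 (SD, 12 arrays). Pde4d, a cyclic AMP phosphodiesterase with many starts, was at -3.45 ± 0.58, Gabbr1, the GABA-B receptor subunit whose forms differ at the N-terminus, at -3.03 ± 0.18, Macf1 at -2.78 ± 0.18 and Nrg1 at -2.46 ± 0.43. Others of the list did not start low, such as Nrxn3 at 0.78 ± 0.11 and Pde4b at 0.86 ± 0.13. The first probesets of Ank2 and Pde4d had mean signals of 94.3 and 71.0, below the median of the intron controls, so that their values are those of probesets not above background. By genotype, 0 of 22 passed the adjusted threshold by limma, and 0 of 22 reached an unadjusted p under 0.05 at the first probeset, against 7.03% of all genes. At the last probeset 1 did, Dst, a spectraplakin, with -0.28, against 5.65% of all genes.

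Of the list of genes with alternative last exons or short and long 3′ forms, 23 of 30 met the rule. Their last probesets had a median of -0.04, against -0.51 over all genes, with 5 of 23 (21.7%) below -1 against 35.6% of all genes, and their first probesets one of -0.68, against -0.17, with 9 of 23 (39.1%) below -1 against 26.3%. Of the middle probesets 5 of 23 (21.7%) lay below -1, against 13.2% of all genes. Homer1, a scaffold of the postsynaptic density with a short activity-induced form, stood at 2.45 ± 0.12 at its last probeset and at 2.09 ± 0.09 at its first. Ntrk2, the BDNF receptor with a truncated form, stood at -2.23 ± 0.28, Pam at -2.53 ± 0.33 and Atp2a2, the calcium pump of the endoplasmic reticulum, at -2.46 ± 0.18 at the last probeset. By genotype, 0 of 23 passed the adjusted threshold at either end by limma and 0 reached an unadjusted p under 0.05, where 7.03% of all genes did at the first and 5.65% at the last probeset.

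Among the partners of KIS and the factors of the 3′ splice site, 18 of 27 genes met the rule, and their last probesets were low. The median of last minus inner was -1.69, against -0.51 over all genes, and 10 of 18 (55.6%) lay below -1 against 35.6% of all genes, with a median of -0.37 at the first probeset, against -0.17. Of their middle probesets 4 of 18 (22.2%) lay below -1, against 13.2%. Fmr1, the RNA-binding protein of fragile X syndrome, had -5.81 ± 0.19 at its last probeset, Srrm2 -5.50 ± 0.24, Srrm1 -4.50 ± 0.23, Dhx16 -4.31 ± 0.21 and Prpf8, the core protein of the U5 particle, -3.78 ± 0.20. The last probesets of Fmr1, Srrm2, Srrm1 and Dhx16 had mean signals of 2.5, 113, 74.1 and 11.7, below the median of the intron controls, 114, so that the size of these values depends on the constant 16. Sf1 itself stood at -0.51 ± 0.10 at the first and at -0.47 ± 0.13 at the last probeset, and its genotype differences were 0.08 and -0.01. By genotype, 0 of 18 passed the adjusted threshold by limma. At an unadjusted p under 0.05 there was 1 of 18 at the last probeset, Prpf8 with -0.25, a share near the 5.65% of all genes, and 0 of 18 at the first, against 7.03%.

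Of the long neuronal genes, 20 of 30 met the rule, and their last probesets were seldom low. The median of last minus inner was 0.33, against -0.51 over all genes, with 2 of 20 (10%) below -1 against 35.6% of all genes, and the median of first minus inner was -0.49, against -0.17, with 6 of 20 (30%) below -1, near the 26.3% of all genes. Of the middle probesets 2 of 20 (10%) lay below -1, against 13.2%. Lrp1b stood at 2.06 ± 0.16 and Dmd, which encodes dystrophin, at 2.36 ± 0.10 at the last probeset, while Opcml stood low at both ends, at -2.36 ± 0.15 and -2.63 ± 0.11. Dpp6 had the lowest start, at -3.53 ± 0.19. By genotype, 0 of 20 passed the adjusted threshold by limma, and 1 of 20 reached an unadjusted p under 0.05 at the last probeset, near the 5.65% of all genes, and 0 of 20 at the first, against 7.03%.

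Collagen, laminin and other matrix genes were taken as a list of long transcripts of non-neural cells, of which 26 of 30 met the rule. Their first probesets were high, with a median of 0.46 against -0.17 over all genes. Of these, 3 of 26 (11.5%) lay below -1 against 26.3% of all genes, and 8 of 26 above 1, where 17.3% of all genes lay. Col15a1 stood at 2.92 ± 0.18 and Col27a1 at 2.71 ± 0.11 at the first probeset. Their last probesets had a median of -0.08, against -0.51, from -4.57 ± 0.22 for Fn1, which encodes fibronectin and whose last probeset had a mean signal of 101, below the median of the intron controls, to 2.39 ± 0.08 for Col1a2. Of these last probesets 9 of 26 (34.6%) lay below -1, near the 35.6% of all genes, and 7 of 26 above 1, against 9.04%. Of the middle ones 6 of 26 (23.1%) lay below -1, against 13.2%. By genotype, 0 of 26 passed the adjusted threshold by limma. Col4a2 was lower at the first probeset and Nid2 at the last, by -0.25 and -0.24, each at an unadjusted p under 0.05. That is 1 of 26 at each end, where 7.03% of all genes reached this level at the first and 5.65% at the last probeset. Whatever the p, 16 of 26 differences were below 0 at the first probeset (34.4% of all genes) and 21 of 26 at the last (50.6% of all genes), with medians of -0.017 and -0.042 against 0.044 and -0.0018 over all genes. The summed signal of 4 meningeal markers was 4345 to 4889 in wildtype and 4314 to 4767 in KIS-ko brains. These markers include Col1a1 and Col1a2, which are also members of this list, so that the sum is not separate from it. The part of meningeal cells in these values was not tested.

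The study chose 10 genes on these arrays for Q-PCR, and 6 of them met the rule, so that the lower level of their interiors in KIS-ko is not independent evidence. Tph2, the enzyme of serotonin synthesis in neurons, changed by 0.20 ± 0.42 (SD, n = 6 litters) at its first probeset, by -0.18 ± 0.16 in its interior and by -0.22 ± 0.16 at its last. Of the 6, 5 are described here, and Tph2 was the 1 of 6 with an unadjusted p under 0.05 at the first probeset relative to the interior, a level that 7.03% of all genes reached (limma difference 0.37, SE 0.11, unadjusted p = 0.010, adjusted p = 0.694). In Tfrc, the transferrin receptor, the 3 values were close to each other, -0.30 ± 0.29, -0.28 ± 0.25 and -0.23 ± 0.26. Gabrg1, Glrb and Glra3, which encode a GABA-A receptor subunit and glycine receptor subunits, were lower at the first probeset by means of -0.05, -0.07 and -0.27, in the interior by -0.21, -0.13 and -0.32, and at the last by -0.19, -0.10 and -0.14, each within the spread between litters or close to it. In turn, 3, 4 and 4 of 6 litters were lower in KIS-ko at the first probeset, 5, 4 and 5 in the interior, and 4, 5 and 4 at the last.

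The labelled tissue was checked by its markers. All 7 of 7 neuronal markers found in the table lay above the 95th percentile of the intron controls, and the liver markers Alb and Fgb lay below the control median. The summed signal of 3 skeletal muscle markers was 979 to 2265 in wildtype and 909 to 1091 in KIS-ko brains, and no muscle marker lay above the 95th percentile of the controls. The correlation of log2 signals between 2 arrays was 0.977 to 0.990. Genes with exactly 9 probesets, just outside the rule, had medians of -0.14 at the first and -0.43 at the last probeset (888 genes), and those with exactly 10, just inside, -0.03 and -0.45 (782 genes).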

How the data were processed

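The authors deposited an intensity per probeset and array, the linear PLIER signal. The authors processed the arrays with the Affymetrix Expression Console and quantile normalization at the exon level. Versions and the genome build are not given in the sources used here. Values below were taken as log2(signal + 16), without a filter on spread, so that changes of dim probesets are understated. Ends were compared with the interior in Python 3.11.15 (numpy 2.4.6, pandas 2.3.3, scipy 1.17.1), and single genes by limma 3.58.1 under R 4.3.3 (lmFit, eBayes, litter as a block, Benjamini-Hochberg over 7669 genes). Array medians were tested by exact sign-flip permutation over 6 litters. Figures used matplotlib 3.10.9. The limma tests were also run on simulated data, with gene means and residual SDs taken from these arrays. Precision is limited by signal over background and by having 6 arrays per genotype.

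The members, gene lists and tests were chosen with earlier results of these data known. Named genes were the 4 lowest and 4 highest at each end among genes with an interior above the 95th percentile of the intron controls, the 5 of smallest p in each genotype test over all genes, members of the lists, and Uhmk1. A few genes that this rule names are not reported here. Pairing comes from the litter named in the labels. After subtraction of genotype means, littermates correlated with r from -0.12 to 0.21 for first minus inner (mean 0.034, against -0.0064 between litters) and from -0.091 to 0.14 for last minus inner (mean 0.043, against -0.0084). Alternatives were other constants, filters, gene subsets, normalizations, moderation, no block, and each litter left out.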

Additional observations from a re-analysis of the deposited data

Results flagged for a closer look

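In 4 of 66 groups of 6 arrays, 1 array lay far from the others by Dixon's criterion for 6 samples, which chance alone meets in about 1 of 20 groups. First minus inner of Vim was -7.24 in the KIS-ko brain of litter 3, with the others between -6.88 and -6.67. That of Map4k4 was -4.74 in the wildtype brain of litter 4, with the others between -7.28 and -7.18. Last minus inner of Atp5b was -7.69 in the KIS-ko brain of litter 3, with the others between -7.27 and -7.07. That of Krt5 was -3.44 in the KIS-ko brain of litter 5, with the others between -2.63 and -2.27. All 4 of these end probesets read below the median of the intron controls, 114, on every array.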

How the results depend on the processing

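The number of genes past the adjusted threshold by genotype was 0 at each end, in last minus first and in the middle under every alternative that was run. The genotype difference of first minus inner kept its direction throughout (0.031 to 0.057, and 0.032 to 0.064 with a litter left out), as did that of last minus first (-0.078 to -0.032 with a litter left out). That of last minus inner, -0.0012, turned to 0.000778 with a constant of 1, 0.00311 without dim probesets, 0.0117 with at least 20 probesets, 0.00119 after quantile normalization, 0.00133 with the 2 outermost probesets, 0.000657 with 4 probes at both ends and 0.00175 with an interior above controls, the last pair chosen after seeing the data, and ran from -0.00602 to 0.00588 with a litter left out. None of these passed a threshold, and the cause was not tested.

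The end bias kept its direction except without dim probesets (1303 genes), with 0.0118 for last minus inner and 0.0642 for last minus first (-0.394 over all genes), so that the order of the ends turned, where the choice of genes removes dim ends. First minus inner was -0.489 and last minus first -0.161 with an interior above controls, and first minus inner was -0.0701 without dim probesets. With a litter left out it ran from -0.185 to -0.164, last minus inner from -0.509 to -0.503 and last minus first from -0.404 to -0.376, and the exact p was 0.0625, the smallest that 5 litters give. With probesets of a relative standard deviation above 0.4 left out, Map4k4 at its first probeset turned to 0.0764 and the genotype difference of Saps2 to -0.199, since another probeset became the first. Without the litter pairing as a block the adjusted count was still 0, the unadjusted counts were 489, 399 and 440 for first, last and last minus first, and the difference of first minus inner (0.0454) had an exact permutation p of 0.132. Of the values for single genes and of the unadjusted counts under all alternatives, 533 moved by less than the spread or kept their side, and 57 moved further.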
